A study of Homo sapiens with 14 samples.

Results

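The first 100 bases of mid-length transcripts were examined in PARS-seq profiles of RNA secondary structure. A member was the stretch of bases 1 to 100 of a transcript longer than 1000 and up to 6000 bases listed in all 8 tables of read starts, and 3694 of the 4722 transcripts in all 8 tables gave one. The cells were labelled HepG2, a human liver carcinoma line, and carried either a scrambled siRNA (control) or an siRNA against ADAR1 (KD), the enzyme that turns adenosine into inosine in double-stranded (DS) RNA. Poly-A RNA was refolded and cut in vitro with S1 nuclease, which prefers single-stranded (SS) bases, or with RNAse V1, which prefers DS bases. Each enzyme and condition had 2 libraries, RNA-seq had 1 library per condition and Ribo-seq had 2. The study calls the PARS-seq and Ribo-seq replicates biological. The labels do not say whether they came from separate cultures, so p-values measure the spread between these samples, estimated in part across transcripts. That spread may be technical.

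In PARS-seq the enzyme leaves a new 5′ end at the base it cuts, and that end becomes the first base of a read. A count of read starts at a base is therefore a count of cuts there, and the log2 ratio of V1 over S1 is high where pairing is common and low where it is rare. In an mRNA the first bases hold the cap, part or all of the 5′UTR and sometimes the start codon, where the ribosome is loaded and scans. Base 1 of a member is the first base of the annotated transcript, which need not be the first base of the RNA in the cells.

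Windows of 21 bases show what a cut looks like at these ends. They come from 4 of the 6 members with the most read starts there among those that could be placed on a transcript of GENCODE, an annotation of human genes, and the 4 were picked with their values in view. The capital letter is the base with the most read starts of that enzyme within bases 1 to 100, and sequences are those of GENCODE on GRCh37, 5′ to 3′.
RPL22, S1, base 58: tggctcctgtGaaaaagcttg
RPL22, V1, base 52: ccgccatggcTcctgtgaaaa
SNRPE, S1, base 73: ccagggtcagAaagtgcagaa
SNRPE, V1, base 64: gtaccgtggcCagggtcagaa
TAF15, S1, base 73: cgtattcgttGttctcggcgg
TAF15, V1, base 66: tggctttcgtAttcgttgttc
GNB2L1, S1, base 52: ctagtttctcTaagccatcca
GNB2L1, V1, base 67: catccagtgcCatcctcgtcg
The SNRPE windows lie in the coding part of exon 1 on the + strand, at chr1:203830802-203830822 for S1 and chr1:203830793-203830813 for V1. The TAF15 windows lie in the 5′UTR in exon 1 on the + strand, at chr17:34136521-34136541 and chr17:34136514-34136534. The GNB2L1 windows lie in the 5′UTR in exon 1 on the - strand, at chr5:180670845-180670865 and chr5:180670830-180670850. The capital base of both RPL22 windows is coding and in exon 1, on the - strand of chromosome 1. The S1 window begins in coding sequence and the V1 window just before the start codon, and both run across the splice junction into the next exon, within chr1:6257807-6259632 and chr1:6257813-6259638.

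In these 4 members the strongest base of an enzyme was cut in every library of that enzyme, and less by the other enzyme. The 2 members not shown, RPL37 and EEF1A1, had strong cuts by both enzymes at a base. The strongest S1 base of RPL37, a large subunit protein, had 462, 1188, 1059 and 577 S1 starts and 423, 399, 1092 and 400 of V1. EEF1A1 had 1 strongest base for both enzymes, with 6884, 2941, 3254 and 2303 S1 starts and 12068, 4432, 9823 and 4738 of V1. In RPL22, a protein of the large ribosomal subunit, the S1 base took 10623 and 13918 read starts in the control S1 libraries and 19614 and 12002 in the KD ones. At the same base the V1 libraries had 63, 57, 80 and 65. The V1 base, 6 bases upstream and within the first codons after the start codon at base 47, took 2030, 2691, 2823 and 2983 V1 read starts against 3, 3, 1 and 1 of S1. SNRPE, an Sm protein of the spliceosomal snRNPs, had 1314, 1347, 1646 and 1167 S1 read starts at its S1 base and 11 to 17 of V1. GNB2L1, a scaffold protein of the small ribosomal subunit, had 4218, 2318, 2808 and 1800 S1 read starts at base 52 and 41 to 147 of V1. Over the 823 members with a mean of at least 100 read starts in both windows, the strongest S1 base of the first 100 held a median of 23.8% to 25.1% of that library's S1 read starts there, and the strongest V1 base 15.0% to 15.5%. The strongest base was the same one in both replicates for 69.4% to 73.0% of these members with S1 and for 62.0% to 63.9% with V1. S1 and V1 shared it in 1.70% to 2.55%. Between conditions the same-numbered libraries shared it in 68.5% to 70.5% with S1 and in 62.2% to 65.5% with V1, near the values between replicates. RPL22 and EEF1A1 have near-identical copies in the genome, and reads that such copies share could have been lost or moved when the authors kept unique alignments.

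Each library had 88565995 to 197781370 read starts on the 4722 transcripts, of which a single transcript, uc022brd.2, took 26.0% to 59.4%, and the S1 library of control replicate 1 listed only these 4722. ADAR, the targeted gene, had an RPKM of 54.8 in control and 15.4 in KD by RNA-seq. By Ribo-seq it had 43.6 and 8.73 in replicate 1 and 55.5 and 44.0 in replicate 2, so the second pair differed far less. The defining liver genes ALB, AFP, APOB, TTR and FGB were listed at 0 in the control RNA-seq library, and the highest of 8 liver markers in either RNA-seq library was APOA1 at 0.0821. COL1A1, a fibroblast collagen, was at 54.7 in control and 40.4 in KD while COL1A2 was at 0.123 and 0.0122. The label of a liver cell line was therefore not borne out by its markers.

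The first 100 bases were thinly cut by both enzymes. They made up 3.76% of the members' bases and held 1.60% to 2.51% of the members' S1 read starts and 1.46% to 1.99% of the V1 ones. A median member had 17 and 11 S1 read starts there in the control libraries and 13 and 9 in KD, against 3950 to 6422 in the rest. With V1 the medians were 28 and 20 in the control pair, then 32 and 19 in the KD pair. S1 starts fell on 10.1% to 13.7% of the first 100 bases and on 25.7% to 32.0% of the others, and V1 starts on 16.1% to 19.9% and 36.0% to 39.0%. A total of 193 members had no read start in these bases in any of the 8 libraries, and 400 to 735 had none in a given library. The test across transcripts took 1866 members with a mean of at least 20 read starts in both windows. Since that filter reads the first 100 bases themselves, the 1866 are the better covered members, and the other 1828 were not tested. The mean was taken over both enzymes, so 284 of the 1866 had an S1 mean under 20 in the first 100 bases and passed through V1, and 41 had a V1 mean under 20 and passed through S1.

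Read starts rose steeply along the window. In the 1866 members, relative density, which is read starts at a base over the mean per base of its own transcript, was 0.195 and 0.166 over bases 1 to 10 in the S1 control libraries. It was 0.369 and 0.307 over bases 31 to 40, 0.807 and 0.655 over bases 61 to 70, and 0.883 and 0.723 over bases 91 to 100. With V1 it went from 0.221 and 0.192 to 1.10 and 0.892 between the first and the last of these bins. The rise from the first to the last bin was 4.08-fold to 4.52-fold in the S1 libraries and 4.54-fold to 4.96-fold in the V1 libraries, KD included. Replicate 1 lay above replicate 2 over bases 91 to 100 in all 4 groups. The transcript mean was first reached at base 71 and at base 131 in the V1 control libraries and at bases 131 and 231 in the S1 ones.

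**Figure D1:**
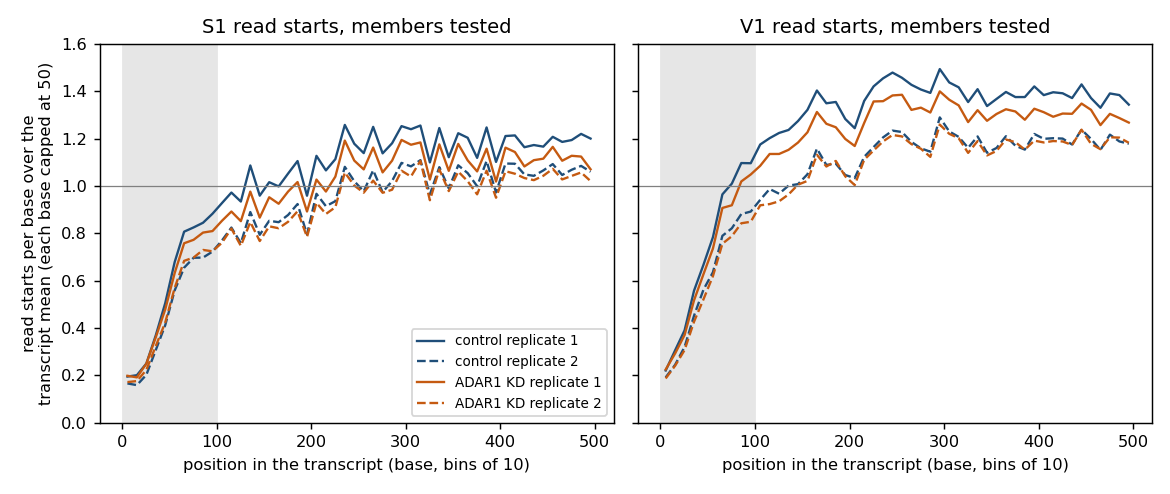
Relative density of S1 (left) and V1 (right) read starts in bins of 10 bases over bases 1 to 500 of the 1866 tested members, with 1 line per library and the first 100 bases shaded. Each line starts near 0.2 and most of its rise falls within the shaded window, and replicate 1 lies above replicate 2 in both conditions by its end.

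Against the rest of the same transcript, most tested members had fewer S1 cuts per base at the start. The measure is log2 of read starts per base in bases 1 to 100 over those per base in the rest, with 0.5 added to each sum, tested by limma with Benjamini-Hochberg adjustment over 2410 transcripts. In control, 1496 of 1866 members were lower and 188 higher, beside 77.0% and 12.2% of all transcripts tested. In KD, 1489 were lower and 183 higher, beside 76.9% and 11.9%. The medians of this S1 difference were -2.02 and -2.33 in the control libraries and -2.10 and -2.26 in KD. With V1, 1394 members were lower and 204 higher, beside 72.1% and 12.9% of all, with medians of -1.47 and -1.87. In KD 1434 were lower and 194 higher, beside 74.2% and 12.1%, with medians of -1.58 and -1.89. Over all 3694 members with no filter the control medians were -4.11 and -4.43 with S1 and -3.13 and -3.42 with V1, so the members that passed lay above the whole. The deficit shrank with the number of read starts asked for. In the 823 members with a mean of at least 100 the control medians were -0.80 and -1.21 with S1 and -0.37 and -0.82 with V1, with 180 higher and 483 lower with S1 and 198 and 412 with V1 (284 and 660, and 300 and 574, of all 1171 tested). The members' shares thus lay near those of all transcripts. Library size cancels in this measure.

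Among named members that passed the filter, the lowest S1 values were those of PCBP2, a poly(C)-binding protein, SRSF5, a splicing factor, and ATP5B, the beta subunit of ATP synthase. PCBP2 had 3, 6, 2 and 3 S1 read starts in its first 100 bases and 79806 to 122817 in the rest. It passed the filter only through its V1 libraries, with 60, 83, 90 and 54 starts in the same bases, so its S1 value is given without a test, and members as empty in S1 that V1 cut less were left out. SRSF5 had 52, 67, 21 and 33 S1 starts there but 2020, 1674, 2337 and 1694 of V1, so V1 was well above S1 in every pair. With V1 the deepest deficits among named members that passed the filter were in GAPDH, the glycolytic enzyme, at -8.49 ± 0.26 (SE, n = 2, limma adjusted p = 7.29e-14), PCNA, the clamp of DNA replication, at -7.09 ± 0.34 (limma adjusted p = 1.19e-11) and HMGB2, a chromatin protein, at -6.91 ± 0.29 (limma adjusted p = 2.20e-12). Among named members the other direction was led by SNRPE with S1, at 4.79 ± 0.17 (limma adjusted p = 3.13e-11). Its first 100 bases held 7817, 8577, 9594 and 7172 S1 starts and the rest of its 1593 bases only 3641 to 4885. POLB, the DNA polymerase of base excision repair, was high with both enzymes, at 4.59 ± 0.18 with S1 and 4.16 ± 0.19 with V1 (limma adjusted p = 5.35e-11 and 6.21e-12). The unnamed uc009xrx.3 had the highest S1 value of all tested members, 11.88 ± 0.18 (limma adjusted p = 3.62e-15), with 25254, 15506, 12085 and 9669 S1 starts in its first 100 bases and 132 to 206 in the rest of its 3849. Against the next 100 bases alone PCNA turned from -7.09 to 5.46 with V1, and SNRPE from 2.39 to -1.06 with V1.

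Many of the annotated starts lay upstream of the start of the GENCODE transcript on which the member was placed. Of the 1666 members with a symbol, 1595 were placed on a GENCODE transcript of the same gene by the bases the enzymes prefer to cut. The best-scoring transcript of the gene was taken, and it may be another isoform than the member. Whether another GENCODE transcript of the gene starts at base 1 was not checked. The symbols come from transcripts that the study called as changed in structure on these samples, so the named members are not a random draw. GENCODE starts at or before base 1 in 374 of the placed members (23.4%), within bases 2 to 100 in 835 (52.4%) and after base 100 in 386 (24.2%). The filter kept 58.6%, 64.2% and 13.0% of the 3 groups. In members whose GENCODE start came after base 100, the median number of S1 starts in the first 100 bases was 1, 1, 1 and 0.5 in the 4 libraries, with 7130 and 5829 in the rest in control. Their median log2 S1 difference was -7.22 to -7.83, against -3.09 to -3.39 where GENCODE starts at or before base 1. The corresponding V1 ranges were -6.68 to -7.07 and -2.25 to -2.61, and in neither enzyme did these groups' libraries overlap. Where GENCODE starts within bases 2 to 50 the S1 medians were -2.66 to -3.02, and for bases 51 to 100 they were -3.87 to -4.29. These medians take every placed member, tested or not, with 0.5 added, so those of the last group depend on that addition. The groups follow from a choice of transcript made with the same reads, so they are not independent of where cuts begin.

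**Figure D2:**
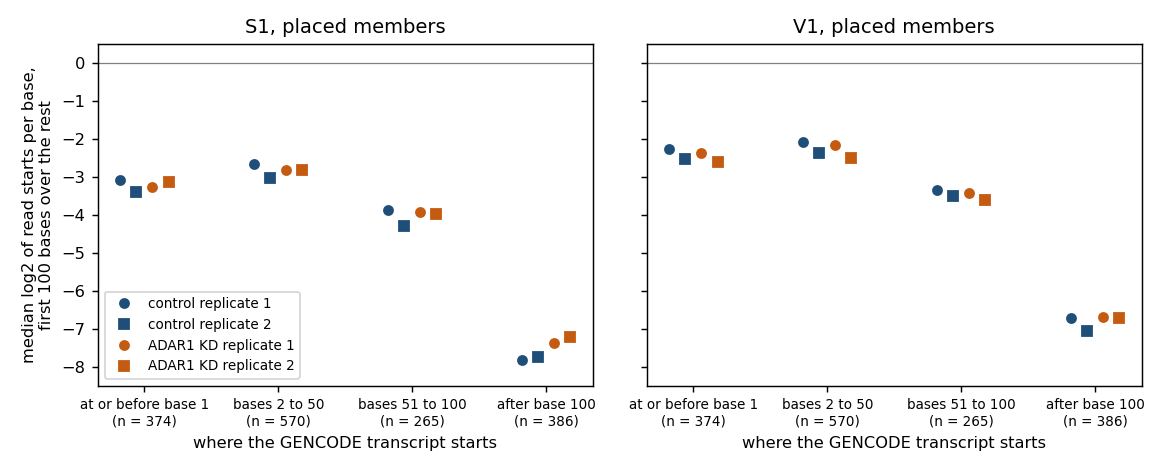
Median log2 of read starts per base in the first 100 bases over the rest, for S1 (left) and V1 (right), in 4 groups of placed members by where their GENCODE transcript starts, with 1 point per library. Members with a GENCODE start after base 100 lie between -7.83 and -6.68 in all 8 libraries, below the other 3 groups.

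Within the window, cuts were sparse upstream of the start of the GENCODE transcript that was chosen. In 335 tested members with a GENCODE start between bases 21 and 81, the median relative density upstream of it was 0.0144 to 0.0191 with S1 and 0.0394 to 0.0472 with V1. Downstream of it, within the same 100 bases, it was 0.313 to 0.392 and 0.420 to 0.600. The upstream stretch was the lower one in 92.2% to 93.7% of members with S1 and in 96.1% to 97.6% with V1. Aligned on the GENCODE start, density over the 10 bases before it was 0.179 to 0.210 with S1, and over the first 10 bases after it 0.432 to 0.494. By bases 91 to 100 from that start it was 0.815 to 0.950 with S1 and 1.09 to 1.35 with V1. GENCODE transcripts were chosen with the same reads, over at least 300 bases each. Bases with few cuts add little to the score of a transcript but lengthen its overlap, so one that starts where cuts begin can score higher. The low density upstream of the chosen start may thus be partly built in, and how far was not tested. On the transcript so chosen, replicate 1 alone and replicate 2 alone gave the same offset for each of the 1595. The choice of transcript itself was not repeated per replicate. The filter also removed named members with few starts and a deep rest, which have no fitted value. NPM1, a nucleolar chaperone whose GENCODE start is at base 146, had 9, 3, 3 and 6 S1 starts against 111001 to 141637 in the rest. HSP90AA1, a cytosolic chaperone, had 0, 0, 0 and 2 S1 starts and 1, 1, 4 and 3 V1 starts in its first 100 bases against 370933 to 620807 S1 starts in the rest, and GENCODE starts it at base 653. HSP90AB1, its paralog, had 2 starts over all 8 libraries, with a GENCODE start at base 85, and RPLP0, a protein of the ribosomal stalk, had 1 to 10 per library with a start just past the window. GAPDH, with a GENCODE start at base 99, went from the V1 value of -8.49 over its first 100 bases to 1.62 over 100 bases counted from that start. Few starts also occurred without a later GENCODE start. PPP1R15B, whose GENCODE start is at base 0, had no read start in any library, and ODC1, at base 1, had 1 to 26.

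**Figure D3:**
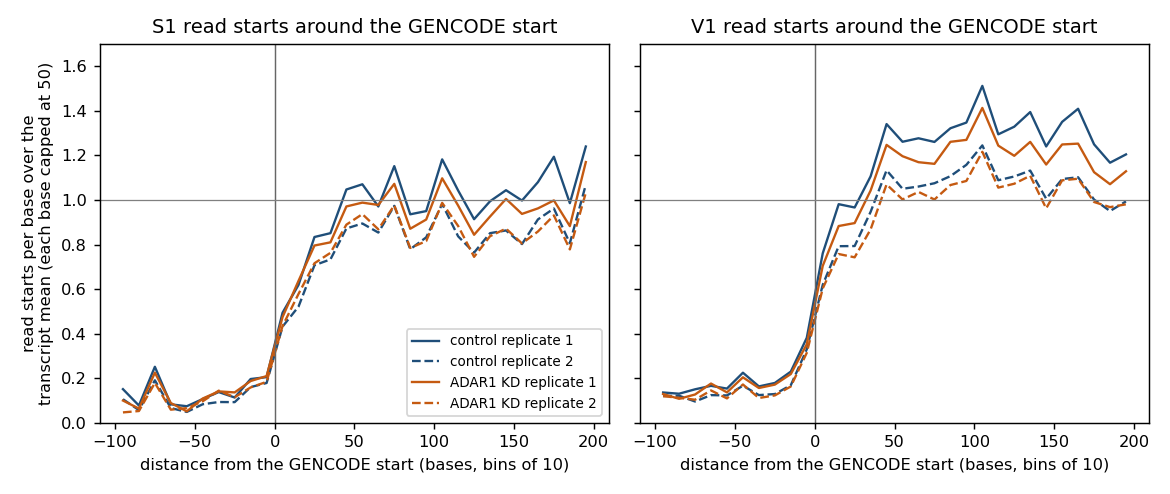
Relative density of S1 (left) and V1 (right) read starts in bins of 10 bases from 100 bases before to 200 bases after the GENCODE start, in 586 tested members whose GENCODE start lies after base 1, with 1 line per library. Bins further upstream hold fewer members, down to 50, and every line climbs at the start, from at most 0.381 in the last upstream bin to at least 0.432 in the first bin after it.

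A deficit remained when the 100 bases were counted from the GENCODE start. Over 1036 placed members with a GENCODE start at or after base 1 that passed the filter on those windows, the S1 medians were -1.39 and -1.84 in the control pair, then -1.56 and -1.77 in the KD pair, and the V1 medians were -0.87, -1.36, -1.04 and -1.44. Those 100 bases were richer in G and C than the rest in 94.8% of the 635 of these that were among the 1866, with a median of 64% against 45.0%. The deficit moved with G and C. In the 217 members with the least, 33% to 60%, the S1 medians were -0.69 and -0.85 in the control pair, then -0.73 and -0.91 in the KD pair. In the 188 with the most, 69% to 86%, they were -1.93, -2.43, -2.14 and -2.32. As the first base of a read, C was the least frequent with S1 and G with V1, relative to their share of the sequence, and the part of base composition in the deficit was not tested. For the 1866 members and bases 1 to 100 as annotated, set against only the next 100 bases, the medians of both enzymes were close to each other, -0.99 and -0.96 with S1 and -0.97 and -0.92 with V1 in control.

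The balance of the enzymes leaned toward V1 in these bases. The log2 ratio of V1 over S1 in the first 100 bases minus that in the rest was above 0 in 66.6% and 66.5% of members in the control profiles, with medians of 0.56 and 0.56, and over all 3694 members with no filter the medians were 0.68 and 0.67. In control 851 members were higher and 301 lower by limma, beside 44.8% and 17.8% of all transcripts tested. Where the filter was asked of each enzyme on its own, a setting chosen after seeing the data, 1541 members were left, the median fitted value in control went from 0.58 to 0.39, and 627 were higher and 275 lower (818 and 396 of all 2031 tested). The KD profiles had medians of 0.55 and 0.39, and 773 members were higher and 328 lower, beside 41.3% and 18.9%. The lean was not a property of the first 100 bases alone. Over successive windows, with the filter asked of each enzyme in each window (also chosen after seeing the data), the median difference from everything after base 100 was 0.47 and 0.46 in bases 1 to 50 in control (603 members), 0.34 and 0.26 in bases 51 to 100 (1250 members), 0.34 and 0.31 in the 100 bases that follow (1639 members) and 0.19 and 0.15 in bases 401 to 500 (1710 members). In KD the medians were 0.47 and 0.26, then 0.31 and 0.15, then 0.38 and 0.33, and 0.28 and 0.24, and KD replicate 2 was lower in both parts of the first 100 bases than in the next 100. Which members are taken moved these values. Over the 438 that passed in every window, control had 0.46 and 0.45, then 0.40 and 0.32, and 0.34 and 0.26 in the next 100 bases. A mean over both enzymes, which lets members in through V1 alone, gave a steeper course, from 0.74 and 0.73 (864 members) through 0.57 and 0.52 to 0.41 and 0.40 in the next 100 bases. Set against those next 100 bases alone, the first 100 bases had medians of 0.02 and 0.08 in the control pair, then -0.02 and -0.10 in the KD pair, with 548 members higher and 506 lower in control, beside 29.7% and 27.8% of all transcripts tested. The excess thus held against the whole transcript and not against the neighbouring 100 bases.

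**Figure D4:**
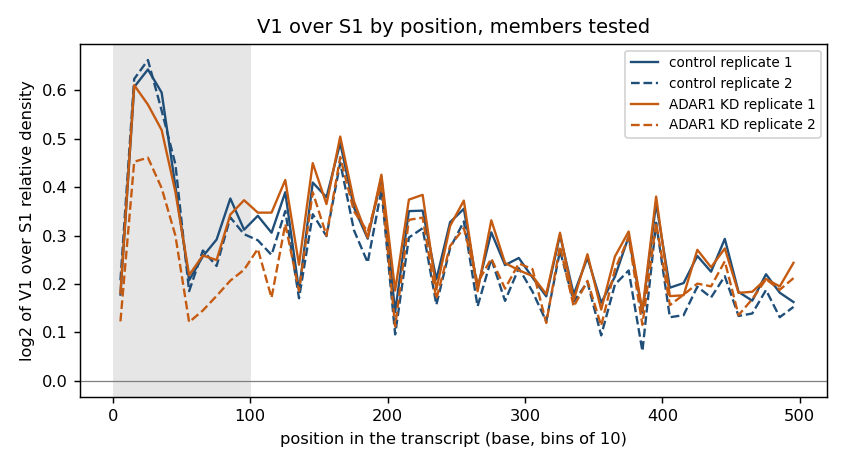
Log2 of V1 over S1 relative density in bins of 10 bases over bases 1 to 500 of the 1866 tested members, with 1 line per profile and the first 100 bases shaded. Within the first 100 bases each line is highest in bases 11 to 30, at 0.45 to 0.66, and drops to 0.12 to 0.22 in bases 51 to 60. KD replicate 2 reaches as high again further on, at 0.46 in bases 161 to 170, and is the lowest line through most of the shaded window.

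The ratio also moved with base composition. Counted from the GENCODE start, V1 over S1 minus the rest was 0.26 and 0.24 in control in the 217 members with the least G and C, 0.53 and 0.44 in the middle 230 and 0.59 and 0.79 in the 188 with the most. The part of the cut preferences in this order was not tested. Start codons lay within the first 100 bases in 378 of 1571 placed coding members (24.1%), with a median start codon at base 175. In the 247 tested members whose start codon began between bases 31 and 98, V1 over S1 relative density was 0.55 and 0.42 over the 30 bases before the codon in control, -0.49 and -0.35 over the codon itself and 0.15 and 0.03 over the next 30. The KD profiles had 0.42 and 0.33, then -0.46 and -0.45, then 0.05 and -0.07. In all 4 profiles the codon was the lowest of the 3 segments and the stretch before it the highest. The codon, taken as the first coding bases of the GENCODE transcript, is as a rule AUG. Its base content is thus largely fixed while that of its flanks is not. Members with the start codon inside the window had control medians of the ratio of 0.56 and 0.51, and those with it further downstream 0.60 and 0.53. Their S1 density medians were -1.42 and -1.83 against -2.28 and -2.58.

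The single members spread far wider than the median. SRSF5 had the highest ratio of the named members tested, 5.41 ± 0.26 (SE, limma adjusted p = 2.73e-18), with profile values of 5.76 and 5.05 in the control pair, then 7.10 and 5.68 in the KD pair. LEPRE1, a collagen prolyl hydroxylase, had 113, 58, 99 and 81 V1 starts in its first 100 bases and 5, 2, 0 and 2 of S1. It passed the filter only through V1, the side where it was high, so its counts are a description with no test. At the other end ZFPL1 had 847, 474, 396 and 409 S1 starts against 16, 30, 17 and 30 of V1, a ratio of -4.47 ± 0.30 (limma adjusted p = 2.17e-14). ZCCHC11, a terminal uridylyltransferase, had 168, 108, 163 and 61 S1 starts against 6, 11, 17 and 8 of V1, and passed only through S1, so it too is given without a test. No profile of these 4 members crossed 0.

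**Figure D5:**
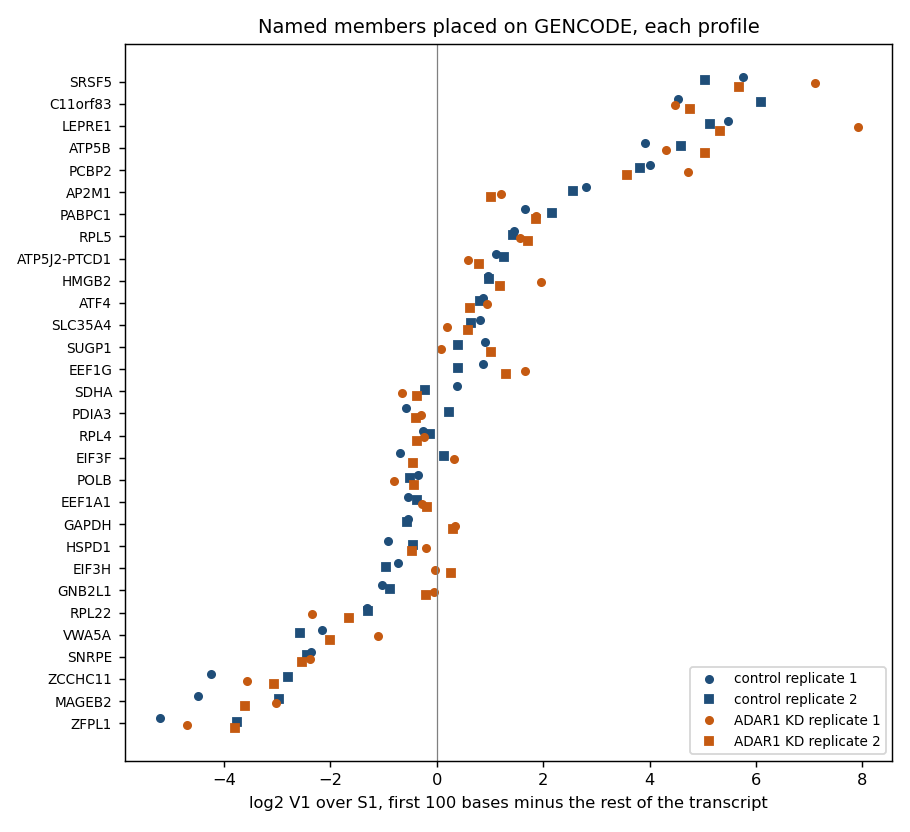
Log2 V1 over S1 in the first 100 bases minus the rest of the transcript for the named, placed and tested members, with 1 point per profile. SRSF5 lies between 5.05 and 7.10 and ZFPL1 between -5.21 and -3.74, and AP2M1 has both control points above both KD points.

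mRNAs with a 5′ terminal oligopyrimidine (TOP) tract, which code for ribosomal proteins and translation factors, were taken from a list of 26 that does not hold every ribosomal protein. It gave 12 members, of which 9 were tested. With S1 in control, 7 of the 9 were lower than their rest and 1, EEF1A1, was higher, beside 77.0% and 12.2% of all transcripts tested, with a median of -2.45 beside -2.09 over all. With V1, 8 were lower and EEF1A1 higher, beside 72.1% and 12.9%, with a median of -2.59 beside -1.56. For V1 over S1 in control, 2 were higher and 4 lower, beside 44.8% and 17.8%, with a median of -0.28 beside 0.53. In KD 3 were higher and 1 lower, beside 41.3% and 18.9%, with a median of -0.06 beside 0.46, and KD minus control was called in 0 of the 9. EEF1A1, the elongation factor that brings tRNA to the ribosome, had 75553, 31227, 37838 and 20196 S1 starts and 72849, 30022, 60647 and 32923 V1 starts in its first 100 bases, and both enzymes shared base 100 as the strongest. Against the next 100 bases alone its V1 value was -1.38, and that of PABPC1 turned to 0.48. In GNB2L1 the ratio was -0.96 ± 0.16 in control (limma adjusted p = 4.93e-06) and -0.13 ± 0.16 in KD (limma adjusted p = 0.511). The difference of 0.83 ± 0.23 did not pass (limma adjusted p = 0.257), though it did with replicate number as a block in the fit (limma adjusted p = 0.0117). RPL5, a large subunit protein, had a positive ratio in control, at 1.45 ± 0.18 (limma adjusted p = 4.42e-08), with 1257, 795, 816 and 515 S1 starts and 1318, 857, 1429 and 988 of V1. RPLP0, EEF1D and NPM1 had 1 to 13 starts per library and were not tested. RPL22 and RPL37, large subunit proteins outside the list, had other values. RPL22 was higher than its rest with both enzymes in control, at 4.47 with S1 and 3.17 with V1 (limma adjusted p = 9.69e-11 and 6.38e-11), and RPL37 was lower with S1, at -3.56, and higher with V1, at 0.92 (limma adjusted p = 4.73e-10 and 0.000297).

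Of the mRNAs under upstream reading frame or polyamine control, 4 were members and 2 were tested. ATF4, the transcription factor of the integrated stress response, had 840, 562, 707 and 546 S1 starts and 1995, 1373, 2933 and 1851 V1 starts, a ratio of 0.85 ± 0.18 in control (limma adjusted p = 0.000171), and its start codon lies downstream, at base 281. SLC35A4, whose mRNA carries a translated upstream frame, had a ratio of 0.72 ± 0.25 (limma adjusted p = 0.0137), while PPP1R15B had no start in any library and ODC1 had 1 to 26. Both tested members were lower with S1, as were 77.0% of all transcripts tested, SLC35A4 turning to 1.40 against the next 100 bases alone, and neither passed with V1. SDHA was the only member of the iron-responsive list, where it served as a comparison without such an element, and its ratio was 0.09 ± 0.32 (limma adjusted p = 0.826). Of 5 chaperone members, PDIA3 and HSPD1 were tested and were lower with both enzymes, as were 77.0% of all with S1 and 72.1% with V1, though with S1 they turned to 2.37 and 0.50 against the next 100 bases alone, while HSP90AA1, HSP90AB1 and PDIA4 had at most 11 starts in a library. The 3 members shown as examples by the study, F11R, PSMB2 and PAICS, had 0 to 25 starts per library in these bases and were not tested. No secreted liver protein was a member.

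Few differences between KD and control could be called in these bases. For KD minus control limma called 0 members with S1 and 0 with V1, beside 0.0% of all transcripts tested in each direction, and at an unadjusted p under 0.05 it gave 65 higher and 56 lower with S1, beside 3.49% and 2.78% of all, and 9 and 19 with V1, beside 0.622% and 0.954%. The median KD minus control was -0.03 with S1 and -0.10 with V1, and these medians turned with the library left out. Without control replicate 1 they were 0.18 and 0.07, without control replicate 2 -0.23 and -0.28, without KD replicate 1 -0.09 and -0.26, and without KD replicate 2 0.08 and 0.06. The standard error of a single member had a median of 0.397 and 0.373. The same-numbered pairs differed by -0.14 and 0.10 with S1 and by -0.12 and -0.09 with V1, so the pairs disagreed in sign with S1. For V1 over S1, 1 member was lower and 0 were higher, beside 0.083% and 0.0% of all, and at an unadjusted p under 0.05 there were 111 lower and 52 higher, beside 5.35% and 2.9%. The median difference was -0.01 in pair 1 and -0.17 in pair 2, and KD replicate 2 was the lowest of the 4 profiles. Without KD replicate 2 the median KD minus control was -0.02, against -0.08 with all libraries. A permutation of 2 against 2 could not have gone below a two-sided p of 0.333 for any one of these values.

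The called member was AP2M1, the mu subunit of the AP2 adaptor of clathrin-coated pits. Its S1 starts in the first 100 bases were 94 and 95 in the control pair, then 222 and 143 in the KD pair, and its V1 starts were 746 and 596 in the control pair, then 1032 and 483 in the KD pair. The ratio of V1 over S1 minus the rest was 2.80 and 2.57 in the control pair, then 1.21 and 1.02 in the KD pair, with no overlap. KD minus control was -1.57 ± 0.31 (limma adjusted p = 0.0314). By enzyme the difference was 1.42 ± 0.34 with S1 (limma adjusted p = 0.665) and -0.15 ± 0.31 with V1 (limma adjusted p = 0.998). The S1 difference passed with replicate number as a block in the fit (limma adjusted p = 0.0332). Without control replicate 1 AP2M1 missed the threshold at -1.45 (limma adjusted p = 0.113), without KD replicate 1 at -1.66 (limma adjusted p = 0.622) and without KD replicate 2 at -1.48 (limma adjusted p = 0.804), and it passed without control replicate 2, at -1.69 (limma adjusted p = 0.0263). Each of these 4 fits leaves 1 library in a group, which is assumed to vary like the other group. Against the next 100 bases alone AP2M1 missed the threshold at -1.22 (limma adjusted p = 0.578). AP2M1 lies on the + strand of chromosome 3, its GENCODE transcript starts upstream, at base -156, and its start codon is at base 158.

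Compared with transcripts of other lengths, the mid-length members had a deeper deficit than short ones. In 442 tested transcripts of over 200 and up to 1000 bases the S1 medians were -1.26 and -1.54 in the control pair, then -1.38 and -1.55 in the KD pair, above those of the members in each library. In 102 tested transcripts over 6000 bases they were -2.24, -2.43, -2.13 and -2.22, which straddled the members' values. V1 over S1 was 0.39 and 0.34 in control in the short transcripts and 0.50 and 0.60 in the long ones. The first 100 bases are a larger part of a short transcript, and these differences between lengths were not tested. Tested members with a symbol and an RNA-seq RPKM of at least 1 in control were split into 3 groups by V1 over S1. The 247 with the highest had a median log2 of Ribo-seq over RNA-seq, with 1 added to each RPKM, of -0.14 in replicate 1 and -0.86 in replicate 2. The 248 with the lowest had 0.08 and -0.83 and the middle 247 had 0.25 and -0.65. The middle group was the highest in both replicates, and each ratio rests on a single RNA-seq library.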

How the data were processed

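The authors trimmed reads with cutadapt, aligned them with Bowtie2 to UCSC transcripts of hg19, kept unique alignments and deposited, per transcript, how many reads start at every base (read starts), with no normalization. The deposited RPKM values came from reads on RefSeq transcripts. Of that table, 4 columns of PARS-seq means were not used. Read starts are whole numbers packed in 1 cell per transcript, and were tested on a log2 scale.

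Read starts were summed over bases 1 to 100 and over the rest of each transcript over 200 bases listed in all 8 tables, 0.5 was added, and limma 3.58.1 (R 4.3.3) with a mean trend was fitted to log2 ratios per base, with a mean of at least 20 read starts over the 8 libraries required in both windows. Profiles of V1 over S1 joined the libraries of a condition and replicate number. P-values were adjusted by Benjamini-Hochberg over all 2410 transcripts, with a threshold of 0.05. In position profiles each base was capped at 50 times its transcript's mean. The fit was tested on simulated data.

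Symbols came from a supplementary list of the study, restricted to transcripts it called on these samples. Named members were placed on GENCODE v44lift37 by the cut preferences, learned on 28 transcripts of equal length, of which 24 gave an offset of 0 when left out. The uc transcripts' own sequences were not used here. No library held the same values as another. Named members are those of 6 gene lists, the 3 largest changes in each direction per fit that all libraries shared and the 5 with most read starts, with at most 2 unnamed transcripts per direction. The members and lists were chosen with earlier results of these data known. The alternatives were another added value, other filters (1 of them per enzyme) and windows, no strongest base, no trend, the replicate block and each replicate left out. Depth per library is given with the results.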

Additional observations from a re-analysis of the deposited data

Results flagged for a closer look

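AP2M1 differed between control and KD by the test of that difference itself, with a log2 V1 over S1 in the first 100 bases minus the rest of -1.57 for KD minus control (limma adjusted p = 0.0314, lower in both same-numbered pairs). Under 13 other settings it passed the threshold in 7 and missed it in 6, with the same direction in each of them, and 3 of the 6 misses left 1 library in a group. Over those settings the limma adjusted p ran from 6.55e-05 to 0.804, and the cause was not tested. Groups of 2 libraries were too small to look for a library far from the others.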

How the results depend on the processing

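The control results kept the sign of their medians in every alternative run, but counts followed the filter. Against 1684 members called in either direction with S1, 1598 with V1 and 1152 for V1 over S1, no filter gave 3511 and 3427 with S1 and V1, a mean of at least 100 read starts gave 663, 610 and 598, and 100 bases from the GENCODE start, a setting chosen after seeing the data, gave 870, 797 and 686. More or fewer members were tested in each, and the stricter mean also moved the balance, to 180 higher and 483 lower with S1 and 198 and 412 with V1. Over all 4493 transcripts, no filter called 299 higher and 3936 lower with S1 and 314 and 3819 with V1. Over all 1171 transcripts, the stricter mean called 284 and 660 with S1, 300 and 574 with V1 and 534 and 310 for V1 over S1. The run from the GENCODE start held only its 1036 members. With the rest limited to the next 100 bases, members higher went from 188 to 426 with S1 and from 204 to 345 with V1 (from 293 to 574 and from 310 to 465 of all 2410 transcripts), and members higher and lower for V1 over S1 from 851 and 301 to 548 and 506.

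For KD minus control, the next 100 bases as the rest gave 2 members higher with S1 (SLC7A6OS and uc003icf.3), 1 with V1 (uc009xrx.3) and, for V1 over S1, 1 higher (uc009xrx.3) in place of AP2M1, the same 2, 1 and 1 as over all 2410 transcripts. They are named after their values were seen. For V1 over S1, where 1 was called (0 higher and 2 lower over all 2410), no filter and no mean trend gave 0, as over all transcripts. The GENCODE start gave 0 in a run that could not hold AP2M1, which GENCODE starts upstream of base 1. Leaving out the strongest base gave 1 higher and 3 lower, beside 1 and 5 over all 2410. Leaving out a replicate in turn leaves a lone library in a group, which is assumed to vary like the other group. The median KD minus control was then -0.12 and -0.09 without control replicates 1 and 2, and -0.15 and -0.02 without KD replicates 1 and 2. The labels number the replicates without saying that a number is shared, so numbers were not taken as pairs of control and KD. Profiles of V1 over S1 join libraries of the same number only to make a ratio, and joining them the other way would leave each condition's mean as it is and change its error. With the replicate block the counts were 7 with S1, 4 with V1 and 14 for V1 over S1, with 6 higher and 4 lower, 5 and 3, and 4 and 16 over all 2410. The deviations of same-numbered libraries correlated across transcripts at 0.217 with S1, 0.309 with V1 and 0.0843 for V1 over S1, a description only. The causes were not tested.

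The median log2 V1 over S1 within the first 100 bases, which depends on library scaling, was 0.49 in control and 0.43 in KD. Totals without uc022brd.2 gave 0.71 and 0.60, TMM factors gave 0.59 in control, and a mean of at least 100 read starts gave 0.33 and 0.31, while single replicates, another setting added after seeing the data, gave 0.46 to 0.52 in control and 0.36 to 0.49 in KD. The mean relative density over bases 1 to 100 was 0.507 with S1 and 0.644 with V1. It was 0.633 with S1 with no cap, 0.362 and 0.527 with a cap at 10, and 0.893 and 1.11 in the members with a mean of at least 100 read starts.

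Over the 92 results of named members that passed the threshold, without those of an enzyme whose own mean was under 20, 1166 alternative values kept direction and call, 38 kept direction only and 20 reversed. With the next 100 bases as the rest, S1 density reversed in PDIA3 (2.37), HSPD1 (0.50), SLC35A4 (1.40), uc004cov.5 (-0.91), ATP5J2-PTCD1 (-0.74) and MTRNR2L2 (-0.72). V1 density reversed there in LEPRE1 (0.69), SNRPE (-1.06), VWA5A (-2.30), uc002sik.2 (1.02), PCNA (5.46), uc003klg.3 (-0.77), EEF1A1 (-1.38), PABPC1 (0.48) and uc004cov.5 (-0.11). From the GENCODE start, GAPDH reversed with S1 (0.30) and V1 (1.62), and V1 over S1 reversed in HSPD1 (1.00), POLB (0.60) and ATP5J2-PTCD1 (-0.19).

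Counts of 9 to 32 read starts in a median member limit what single members can show. Standard errors rest on 2 libraries per group and, through limma, largely on the spread of other transcripts. The prior degrees of freedom were 11.79 with S1, 15.04 with V1 and 31.28 for V1 over S1. They cover no variation beyond that between these libraries.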
